A study of Rattus norvegicus with 6 samples.

Results

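Myc, its partner Max and a set of genes for nucleolar proteins and polyamine synthesis were examined in rat aorta. The animals were spontaneously hypertensive rats (SHR), which develop high blood pressure without treatment. The list named 8 genes: Myc, Max, Gnl3, Ncl, Npm1, Nolc1, Fbl and Odc1. Members were all probe sets of the array whose annotation gives 1 of these symbols and no other, each kept apart. They came to 14 probe sets of 8799, for 6 genes. The 2 probe sets annotated with Npm1 also carry the symbol of a pseudogene, Npm1-ps9, and were not used. The expression of Fbl was not analysed here, and for Fbl and Npm1 only the promoter windows are described. The genes were chosen by earlier results of the same comparison, where Myc and Gnl3 had some of the smallest p-values of the genes lower in runners. Their differences are therefore given as a description, with no test.

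Runners had wheels in their cages for 5 weeks and ran at will, and non-runners of the same strain did not run. Each group had 3 Affymetrix arrays with the letters A, B and C, and RNA from 3 aortae was pooled on each. The labels of runner arrays A, B and C also give the letters D, E and F in brackets. The labels give neither age nor sex, nor whether the pools held different animals, so the spread between arrays may be in part technical. The values are intensities on a linear scale, and the number of arrays limits their precision.

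Myc is a transcription factor that drives cell growth. It pairs with Max, and the pair binds the DNA sequence CACGTG, called an E-box, near genes for ribosome production, metabolism and the cell cycle. Max also pairs with repressors of the Mxd family, which compete with Myc for the same sites. The nucleolus is where ribosomal RNA is made and assembled into ribosomal subunits, and nucleolin, nucleophosmin, fibrillarin and the product of Nolc1 work there. Odc1 encodes ornithine decarboxylase, the first enzyme of polyamine synthesis and a well known Myc target. In the vessel wall, Myc is best known from smooth muscle cells that are stimulated to grow.

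The E-box was searched in the window from 250 bases before to 50 bases after the start of each gene, from RefSeq on the rat assembly GRCr8. A window was matched for 7 of the 8 genes, all but Myc. CACGTG, which reads the same on both strands, stood in 3 of the 7: Gnl3, Max and Fbl. It stood in 6.42% of all 33469 windows and in 9.63% of the 2607 tested genes of the array that had a window. In Gnl3 the first base of the motif lies 25 bases before the start, in Max 33 bases before it, and in Fbl it is base 22 from the start. The windows of Ncl, Nolc1, Odc1 and Npm1 do not hold these letters. The 250 bases before the start of Gnl3, a nucleolar gene whose probe sets disagree in direction, and of Max are shown, as the array members with an E-box. The bases run 5′ to 3′ with the E-box in capitals. They lie on the minus strand at chr16:6219783-6220032 and chr6:101395291-101395540 of GRCr8.
Gnl3: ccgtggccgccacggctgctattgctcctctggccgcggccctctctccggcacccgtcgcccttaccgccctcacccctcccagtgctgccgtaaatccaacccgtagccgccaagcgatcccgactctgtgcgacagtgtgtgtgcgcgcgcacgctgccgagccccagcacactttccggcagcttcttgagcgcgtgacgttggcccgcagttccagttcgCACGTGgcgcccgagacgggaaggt
Max: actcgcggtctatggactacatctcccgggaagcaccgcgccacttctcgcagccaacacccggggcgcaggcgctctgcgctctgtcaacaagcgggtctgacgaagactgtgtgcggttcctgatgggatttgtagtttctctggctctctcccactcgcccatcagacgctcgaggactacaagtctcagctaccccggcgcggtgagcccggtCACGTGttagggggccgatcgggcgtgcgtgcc

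Signal for the members was weak to moderate. A control level of 40.8 was taken as the 95th percentile of 19 yeast and sense-strand control probe sets. Of the 14 member probe sets, 6 lay above it on all 6 arrays, 4 on some arrays and 4 on none. Differences were computed on log2(intensity + 2.4) after quantile normalization, as runner minus non-runner, and the dimmest 40% of probe sets were left out of the limma fit. That filter kept 12 of the 14, and the other 2 are given by their intensities. Non-runner B differed most from the rest, with a beta-actin 3'/5' ratio, a sign of RNA quality, of 2.14 against 1.22 to 1.67 on the others. The larger differences that this array moves by over 1.5 times, or turns in sign, are followed by their value without it. The smooth muscle markers that define the tissue were bright, with all 8 tested above the control level on every array. Since the aorta was measured whole, fewer cells of a type and less RNA per cell cannot be told apart.

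Myc was lower in runners in both of its probe sets. The first, Y00396mRNA_at, read 78.4, 69.4 and 44.2 on non-runners A, B and C, and 26.5, 35.1 and 30.3 on runners A, B and C. All non-runner arrays were above the control level and all runner arrays below it, so the groups were apart. Its means were 64.0 ± 17.7 and 30.6 ± 4.31 (SD, n = 3), with a log2 difference of -1.01 ± 0.22 (SE). Counted against the control level in place of the dim runner values, Myc was at least 1.51-fold lower in runners in this probe set. This bound is on group means and makes no allowance for the spread between arrays.

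The second Myc probe set, Y00396mRNA_g_at, read 75.0, 110.6 and 60.6 in non-runners and 36.6, 30.3 and 43.0 in runners. Non-runner B was the highest array here, and only runner C reached above the control level. Its means were 82.1 ± 25.7 and 36.6 ± 6.35, and the log2 difference was -1.10 ± 0.23 (SE), with 1 of the 3 runner arrays measured above the control level. Without non-runner B the differences of the 2 probe sets were -0.93 ± 0.24 and -0.87 ± 0.17 (SE). Both probe sets were made from the same sequence entry, so they are not independent measures of Myc. Their log2 values had a Pearson r of 0.86 over the 6 arrays, a description that includes the difference between the groups.

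Gnl3 encodes nucleostemin, a GTP-binding protein of the nucleolus that is abundant in stem cells and dividing cells. Its 3 probe sets disagreed. In rc_AA892598_at the non-runner arrays lay close together at 66.7, 68.3 and 63.4, and the runner arrays read 44.4, 33.5 and 33.4. The groups were apart, and runners B and C were below the control level. The means were 66.1 ± 2.50 and 37.1 ± 6.32 (SD, n = 3), and the log2 difference was -0.84 ± 0.18 (SE).

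A second probe set of the same entry, rc_AA892598_g_at, read 91.8, 129.1 and 88.7 in non-runners and 90.4, 78.5 and 87.7 in runners. Here non-runner B alone stood high, and the other 5 arrays overlapped. The log2 difference was -0.25 ± 0.18 (SE), and -0.09 ± 0.14 without non-runner B. The remaining probe set, rc_AA800679_at, is from another entry and read 71.6, 47.8 and 52.6 in non-runners and 68.7, 61.8 and 74.2 in runners. Its difference had the opposite sign, 0.23 ± 0.18 (SE), or 0.12 without non-runner B, and the groups overlapped. It ran against the other 2 across the arrays, with a Pearson r of -0.54 and -0.67 over 6 arrays. A lower level of Gnl3 in runners, with groups that do not overlap, thus rests on 1 of its 3 probe sets.

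**Figure D1:**
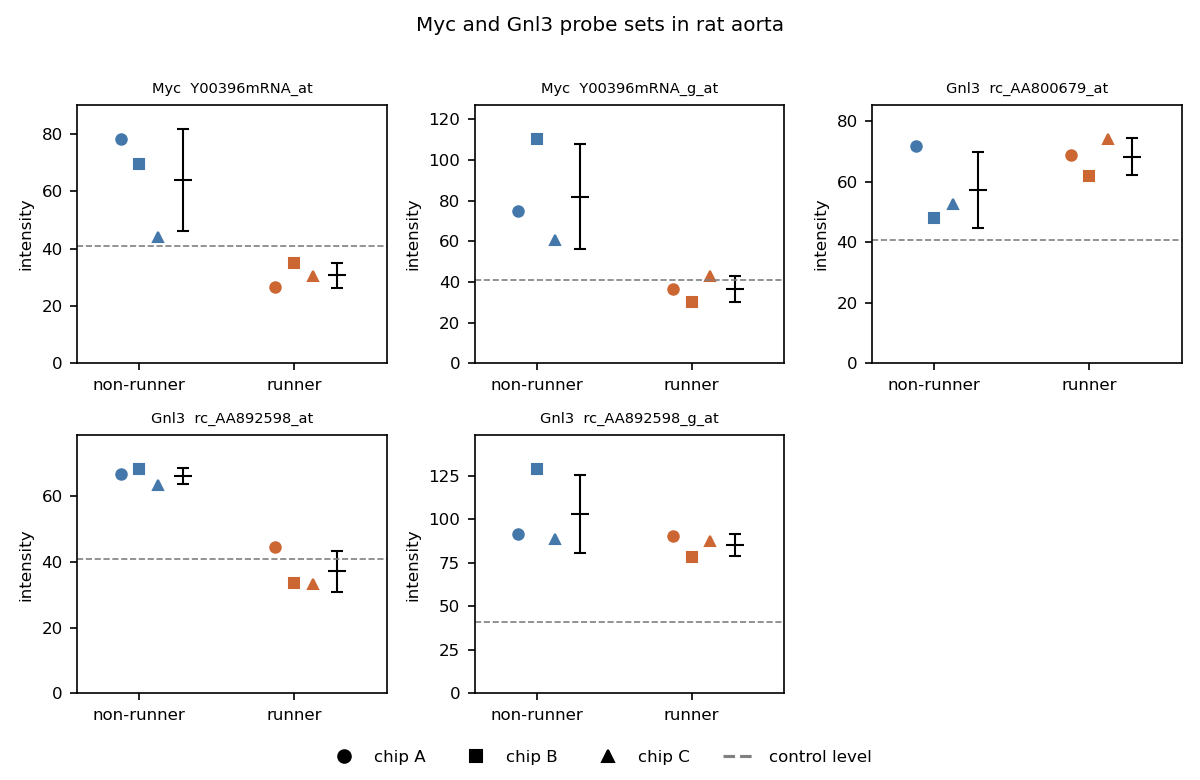
Intensity (linear scale) of the 2 Myc and 3 Gnl3 probe sets on each array, non-runners in blue and runners in orange, with the chip letter as the symbol, the mean and SD of each group (n = 3) as a black bar, and the control level of 40.8 as a dashed line. In both Myc probe sets and in rc_AA892598_at of Gnl3 every runner array lies below every non-runner array, and in the other Gnl3 probe sets the groups overlap.

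Max, the obligate partner of Myc, could hardly be read on this array. D14448_s_at measured 18, 21 and 25.1 in non-runners and 38.6, 25.4 and 16.1 in runners, all below the control level. Runner A was highest and runner C lowest, so the runner arrays spanned the whole range. The log2 difference was 0.18 ± 0.32 (SE), and it turned to -0.14 without runner A. The other Max probe set, D14447_at, lay between 0.4 and 0.6 on every array and was not tested.

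Ncl, nucleolin, which binds ribosomal RNA precursors, was not lower in runners. The brighter probe set, M55015cds_s_at, measured 210.1, 205.4 and 246.2 in non-runners and 250.6, 268.7 and 230.5 in runners. Non-runner C lay among the runners, and the log2 difference was 0.17 ± 0.15 (SE). In M55017exon_s_at the runners, at 27.1, 31.3 and 26.6, were all above the non-runners, at 22.9, 22 and 16. The difference was 0.40 ± 0.17 (SE), and all 6 of these values are below the control level.

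Nolc1 encodes a nucleolar phosphoprotein that works with small nucleolar RNA particles. M94287_at measured 71.1, 94.8 and 67.0 in non-runners and 75.4, 75.5 and 80.0 in runners, with non-runner B the highest. The difference was 0.00 ± 0.17 (SE), and 0.14 ± 0.12 without non-runner B. In rc_AA859299_at the non-runners measured 45.1, 53.0 and 28.3 and the runners 15.6, 7.4 and 42.0. Runner C lay among the non-runners, and the other runner arrays were far lower. The difference of -1.15 ± 0.49 (SE) was the largest in size of all members and also had the largest error. It was -0.63 without runner B and -1.70 without runner C. The third probe set, rc_AA998882_s_at, lay between 1.1 and 4.2 and was not tested.

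Odc1 differed little between the groups. J04791_s_at measured 74.3, 90.2 and 94.1 in non-runners and 72.0, 74.6 and 69.5 in runners. Runner B lay just above non-runner A, and the log2 difference was -0.24 ± 0.16 (SE). J04792_at measured 245.1, 183.8 and 118.6 in non-runners and 186.3, 179.0 and 179.9 in runners. The group means were both 182, and the SD was 63.3 in non-runners and 3.98 in runners. The difference was 0.05 ± 0.25 (SE), and it was -0.22 without non-runner C. The Pearson r of the 2 Odc1 probe sets over the 6 arrays was -0.67.

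**Figure D2:**
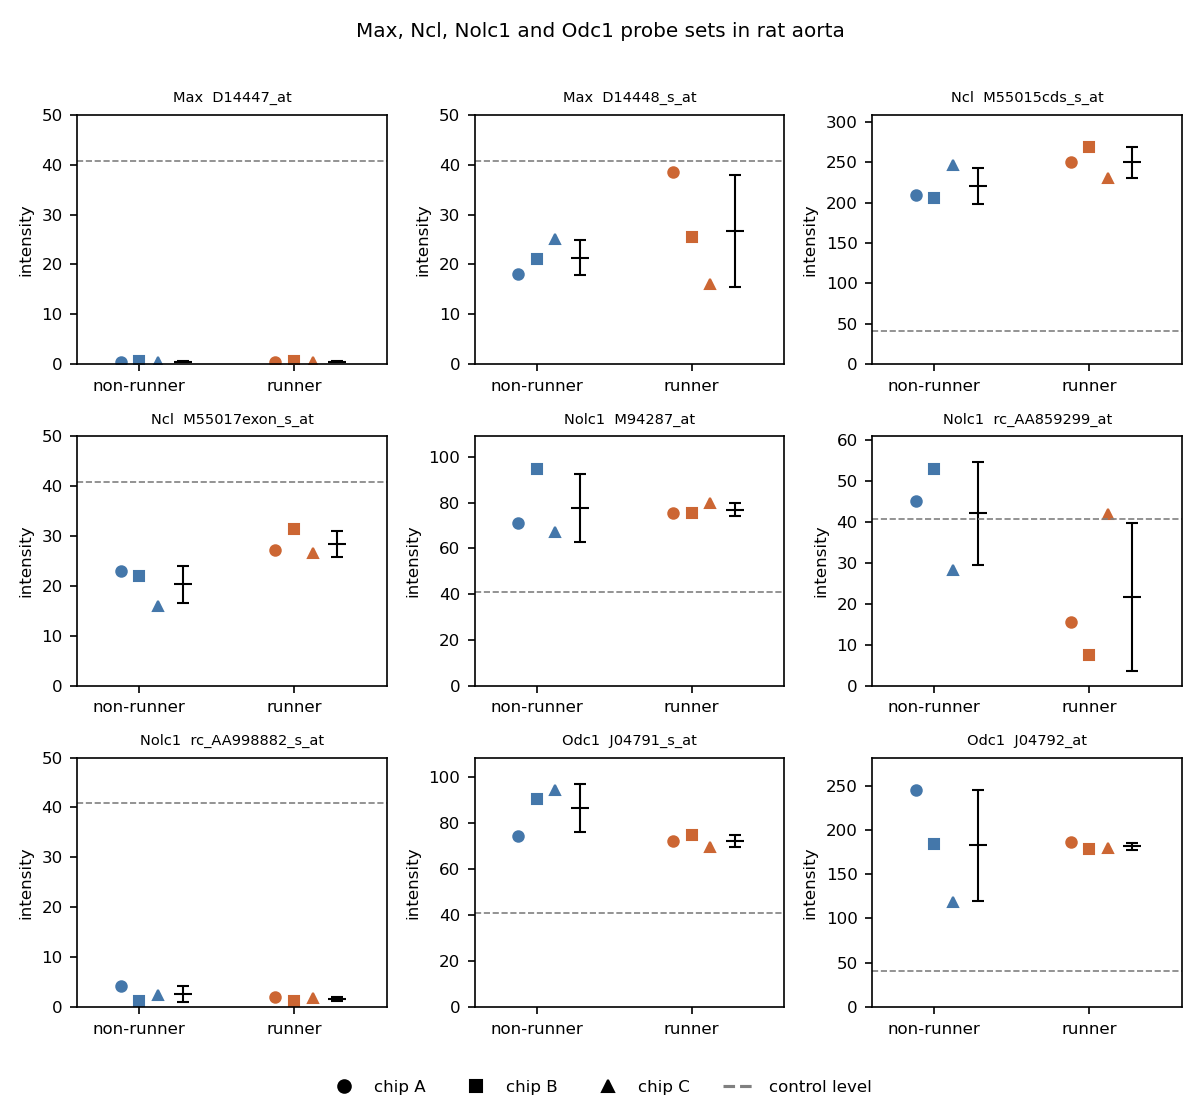
Intensity (linear scale) of the probe sets of Max, Ncl, Nolc1 and Odc1 on each array, with symbols, mean and SD bars (n = 3) and the control level of 40.8 drawn as for Myc and Gnl3. Both Max probe sets, 1 of Ncl and 1 of Nolc1 stay below the control level on every array, and only M55017exon_s_at of Ncl has groups that do not overlap.

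Counted together, the tested members were evenly split, with 6 probe sets below 0 and 6 above, where 50.5% of all 5244 tested probe sets were below 0. Their median log2 difference was -0.12, beside 0.00 for all tested. Groups did not overlap for 3 members that were lower, the 2 of Myc and 1 of Gnl3, where 7.76% of all probe sets were apart in that direction. They did not overlap for 1 member that was higher, of Ncl, where 7.23% were. These counts describe genes picked on the same contrast and are no evidence of a shared change. Of all probe sets tested, limma with Benjamini-Hochberg adjustment called 0% higher and 0% lower, and no adjusted p was under 0.196. With no adjustment, 203 probe sets (3.87%) were higher and 221 (4.21%) lower at p under 0.05 by limma.

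**Figure D3:**
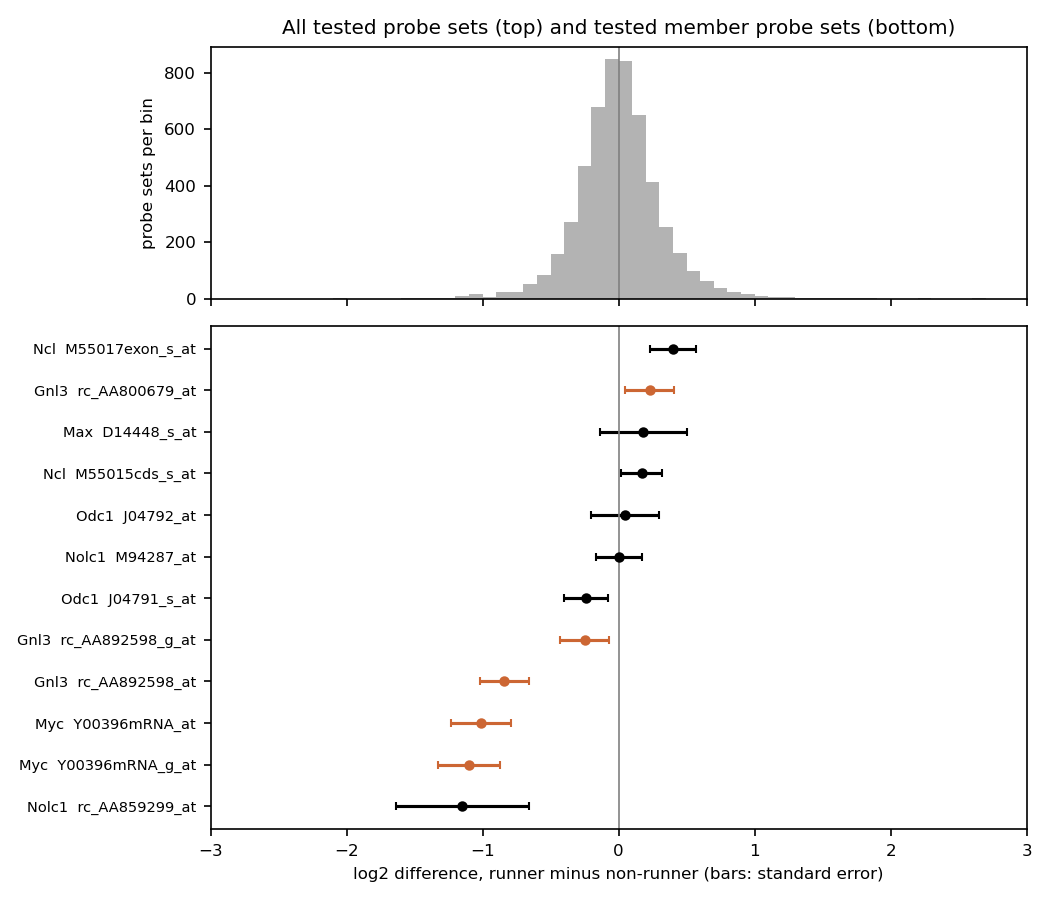
Top, a histogram of the log2 difference, runner minus non-runner, of the 5244 tested probe sets in bins of 0.1. Bottom, the same difference for the 12 tested member probe sets with its standard error as a bar, Myc and Gnl3 in orange. The members run from -1.15 (Nolc1) to 0.40 (Ncl), with 6 on either side of 0.

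Leaving out 1 array at a time cannot turn the direction of a member whose groups do not overlap, so for these only the size is of interest. Myc ranged from -1.24 to -0.86 in its first probe set and from -1.27 to -0.87 in its second, and Gnl3 from -1.01 to -0.74 in rc_AA892598_at. The ranges of Max, J04792_at of Odc1 and M94287_at of Nolc1 crossed 0.

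**Figure D4:**
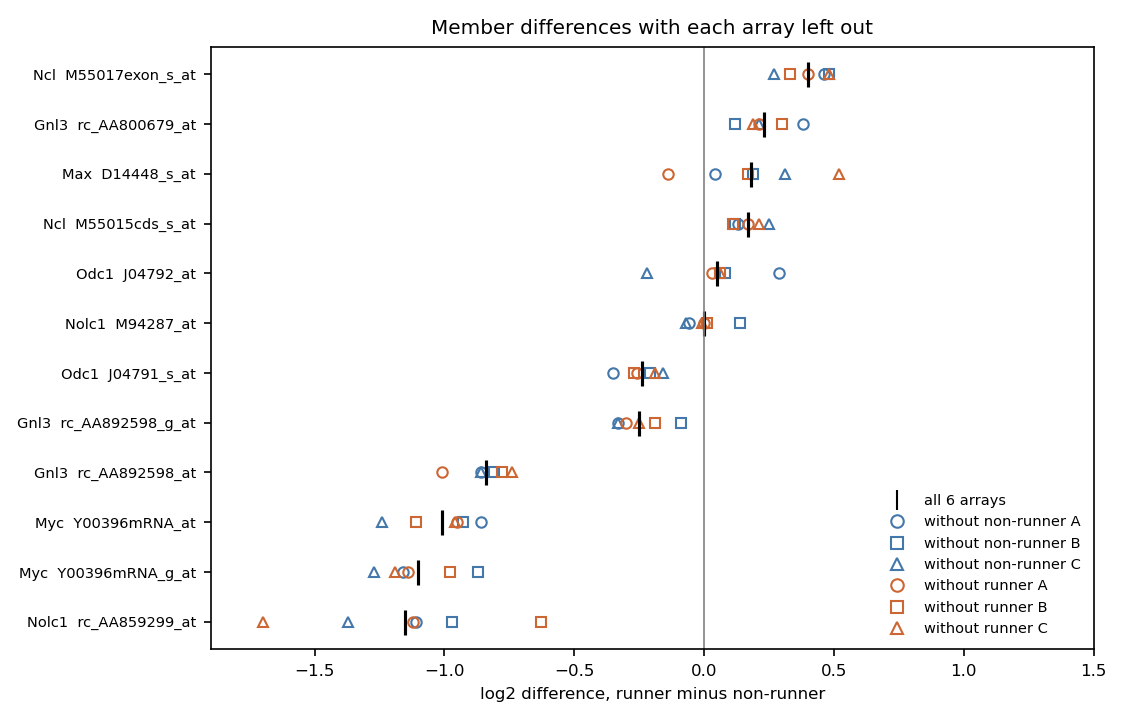
Log2 difference, runner minus non-runner, of the 12 tested member probe sets with all 6 arrays (black bar) and with each array left out (open symbols, colour and shape giving the array). Both Myc probe sets and rc_AA892598_at of Gnl3 stay below -0.7 throughout, and rc_AA859299_at of Nolc1 moves from -1.70 to -0.63.

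For some cell types, the summed intensity of markers also lay apart between the groups. After Benjamini-Hochberg adjustment limma called 0 markers by their brightest probe sets, and no adjusted p was under 0.234. Of 6 tested endothelial markers, 5 were lower in runners, where 53.7% of all 3173 tested genes were. The summed intensity of the 6 was 536 to 663 on non-runner arrays and 491 to 505 on runner arrays. Most of the difference in this sum lay in Egfl7, at 86.7, 140.1 and 129.7 in non-runners and 37.2, 34.1 and 14.6 in runners. Of the defining genes, Pecam1 was above the control level on all 6 arrays and higher in runners (0.45 ± 0.30, or 0.13 without non-runner B), and Vwf and Kdr lay below that level on every array. For nerve and Schwann cell markers, 6 of 7 were lower, with sums of 1469 to 1654 and 1109 to 1277. The brightest of them, Pmp22, weighs most in this sum, with means of 1010 in non-runners and 790 in runners. With the 7 genes weighted equally, as mean centred log2 values, the groups overlapped, at 0.05 to 0.34 and -0.46 to 0.15. For blood cell markers, 4 of 5 were higher, with sums of 1663 to 2150 and 2393 to 4671. Sums of smooth muscle markers overlapped, at 13607 to 15785 and 13274 to 14547. Those of fibroblast, adipocyte, brown adipocyte, leukocyte and striated muscle markers overlapped as well. No listed marker on the array was at 0. The part of cell makeup in the lower Myc and Gnl3 values was not tested. For RNA quality, the beta-actin 3'/5' ratio was 1.70 ± 0.432 in non-runners and 1.31 ± 0.105 in runners (two-sided exact permutation p = 0.300, where 3 against 3 arrays cannot go below 0.1). The GAPDH 3'/5' ratio was 1.52 ± 0.383 and 1.17 ± 0.0551 (exact permutation p = 0.1, the smallest possible). With the beta-actin ratio as a covariate the Myc differences were -1.03 and -0.92 and that of rc_AA892598_at of Gnl3 -0.80. The GAPDH ratio was not used as a covariate, and the part of RNA quality in these differences was not tested.

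Genes around the members were taken from 8 lists, leaving out the members. Of 117 such genes tested by their brightest probe set, limma called 0, with adjusted p from 0.449 to 0.997. With no adjustment, 6 of them were higher and 4 lower at p under 0.05. Among all 3173 genes, 2.93% were higher and 4.44% lower at that p, and 53.7% had a difference below 0. Some genes, such as Pcna, stand in more than 1 list. All adjusted p-values that follow are limma's with Benjamini-Hochberg adjustment, over all probe sets.

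Of the Myc network, which holds relatives, cofactors and competitors of Myc, 12 genes were tested, 7 higher and 5 lower, and 0 passed in either direction. The median was 0.12, beside -0.02 for all genes, and it was -0.05 with the dimmest 60% left out. Kat5, an acetyltransferase that Myc recruits, read 49.9, 39.6 and 32.6 in non-runners and 47.8, 56.3 and 57.4 in runners (log2 difference 0.36 ± 0.17 SE, adjusted p = 0.649). Ruvbl1, an ATPase and Myc cofactor, differed by 0.27 ± 0.15 but lay below the control level on all 6 arrays. Mxd4, a repressor that competes for Max, measured 59.9, 16.5 and 70.2 in non-runners and 74.7, 83.8 and 69.0 in runners. Its difference of 0.79 ± 0.45 (adjusted p = 0.692) was 0.20 without non-runner B, the lowest array. Mxi1, another such repressor, differed by -0.08 ± 0.20, and by 0.13 without that array.

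Of genes known to rise with Myc, 24 were tested, 10 higher and 14 lower, and 0 passed in either direction. Their median was -0.04. Hspd1, a mitochondrial chaperone, measured 818.1, 1094.3 and 1044.3 in non-runners and 773.4, 680.9 and 620.3 in runners (-0.48 ± 0.16, adjusted p = 0.567). Hk2, a hexokinase, differed in the other direction by 0.41 ± 0.16. The probe sets of Hnrnpa1, an RNA binding protein, disagreed, with -0.43 ± 0.17 in the brightest. Dimmer ones differed by 0.29 ± 0.20, -0.29 ± 0.17 and -0.20 ± 0.34 (0.48, -0.24 and 0.14 without non-runner B). The cell cycle genes Cdk4 and Ccnd1 differed by -0.10 ± 0.16 and 0.03 ± 0.18 (-0.23 and -0.11 without non-runner B), and Eif4e, the cap binding translation factor, by -0.01 ± 0.15. Cad, of pyrimidine synthesis, and Tfrc, the transferrin receptor, were too dim to be tested.

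Genes known to fall with Myc were also mixed. Of 10 tested, 3 were higher and 7 lower, with a median of -0.17, and 0 passed in either direction. Pdgfrb, a receptor of smooth muscle and pericytes, measured 55.0, 28.5 and 70.1 in non-runners and 89.3, 65.1 and 108.7 in runners (0.79 ± 0.32, adjusted p = 0.585, and 0.46 without non-runner B). Ndrg2, a gene of differentiated cells, differed by -0.32 ± 0.14, and Cdkn1a, the cell cycle inhibitor p21, by -0.43 ± 0.32, or -0.69 without non-runner B. For Cdkn1a only non-runner C, at 53.4, lay above the control level. The difference of Cebpa, a transcription factor of fat cells, was 0.79 ± 0.51, with non-runner B far below the other arrays at 6.5, and 0.11 without it. For Cebpa only runner B, at 45.7, lay above the control level.

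Of the factors for the nucleolus and ribosome assembly, 10 were tested, 6 higher and 4 lower, with a median of 0.06 (-0.01 without non-runner C), and 0 passed in either direction. Ubtf, which starts ribosomal RNA transcription, read 30.8, 28.2 and 31.0 in non-runners and 40.5, 39.5 and 41.7 in runners. The groups were apart, but only runner C reached the control level, and the difference was 0.37 ± 0.14 (adjusted p = 0.581). Nop58, a core protein of small nucleolar RNA particles and a partner of fibrillarin, differed by 0.48 ± 0.29, with non-runner B lowest at 34.4, and by 0.14 without it. Dkc1, which modifies ribosomal RNA, differed by -0.29 ± 0.18 in its brightest probe set and by 0.20 ± 0.25 in the other (-0.14 and -0.04 without non-runner B). Top1, a DNA topoisomerase, differed by 0.10 ± 0.14.

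Polyamine genes around Odc1 had 6 tested members, 4 higher and 2 lower, with a median of 0.14 (-0.08 without non-runner A), and 0 passed in either direction. Oaz2, an antizyme that directs ornithine decarboxylase to breakdown, measured 1498.4, 1770.4 and 1722.7 in non-runners and 2547.0, 2120.5 and 2374.3 in runners. The groups were apart, and the difference was 0.55 ± 0.15 (adjusted p = 0.449, the smallest of the 117 genes). Azin1, which holds antizyme back, measured 89.0, 131.4 and 113.0 in non-runners and 89.1, 68.6 and 85.4 in runners (-0.44 ± 0.20, adjusted p = 0.622). Its groups touched, with runner A just above non-runner A in intensity, and its dimmer probe set differed by 0.02 ± 0.16. Oaz1, another antizyme, differed by -0.20 ± 0.17 (-0.07 without non-runner B), and Amd1, of spermidine synthesis, by 0.20 ± 0.20. Oat, which makes and uses ornithine, differed by 0.36 ± 0.19 in its brightest probe set and by 0.23 ± 0.26 in the other. Without non-runner B these were 0.17 and 0.55. Arg1, arginase, was too dim to be tested, at 3.3 to 18.9.

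Translation factors and the kinases that control them lay near 0 in their brightest probe sets. Of 25 tested, 12 were higher and 13 lower, all between -0.36 and 0.24, with a median of -0.01 and 0 past the test in either direction. The outer values were those of Eif4h (-0.36 ± 0.20), an aid of the initiation helicase, and Eif2ak2 (0.24 ± 0.17), a kinase that slows initiation. Eif4a2, an initiation helicase, differed by 0.22 ± 0.18, Eif4ebp1, which restrains Eif4e, by 0.14 ± 0.19, and Eef1a1, an elongation factor, by 0.05 ± 0.15. Without non-runner B, Eif4h differed by -0.16 and Eif4a2 by 0.06. Dimmer probe sets went further out, to 0.56 ± 0.26 in Eif4ebp1 (0.24 without non-runner B) and -0.42 ± 0.18 in the kinase Rps6kb1. Those of Eif4h disagreed, at 0.20 ± 0.23 (0.06 without non-runner B) and -0.37 ± 0.16.

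Markers of dividing cells had 11 tested members, 6 higher and 5 lower, with a median of 0.06 (-0.09 without runner B), and 0 passed in either direction. Pcna, the DNA clamp, measured 284.0, 380.1 and 335.7 in non-runners and 283.8, 283.9 and 251.6 in runners (-0.29 ± 0.16, adjusted p = 0.679). Cdk1, the mitotic kinase, lay below the control level on all 6 arrays. Tubb5, a tubulin, differed by 0.30 ± 0.17, or 0.16 without non-runner B.

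Myc is itself a gene of the early response to growth signals. Of 23 other immediate early genes tested, 13 were higher and 10 lower, with a median of 0.04 (-0.11 without non-runner C), and 0 passed in either direction. Klf4, which restrains growth in many cells, measured 368.6, 509.8 and 369.6 in non-runners and 300.8, 287.7 and 227.4 in runners (-0.63 ± 0.20, adjusted p = 0.520). Jund differed the other way by 1.03 ± 0.38, with non-runner B lowest at 56.3 (0.57 without it), and Nr4a3, a nuclear receptor, by -0.38 ± 0.16. Fos differed by 0.11 ± 0.22 and Egr1 by -0.11 ± 0.31 in their brightest probe sets. Jun differed by 0.22 ± 0.31 in its brightest and by 0.84 ± 0.17 (adjusted p = 0.296), -0.05 ± 0.41 and -0.47 ± 0.26 in dimmer ones. Without non-runner B the brightest probe sets of Fos, Egr1 and Jun differed by 0.22, 0.25 and 0.51, and the dimmer ones of Jun by 0.82, 0.46 and -0.21.

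**Figure D5:**
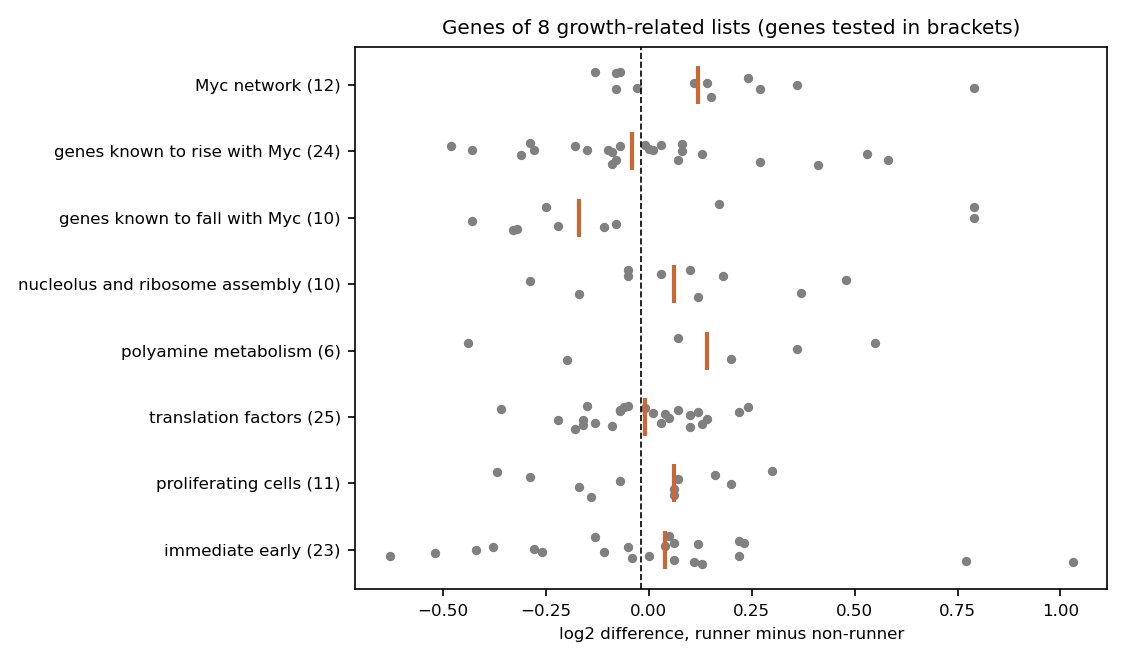
Log2 difference, runner minus non-runner, of each tested gene (grey, brightest probe set) in the 8 lists, with the list median in orange and the median of all 3173 genes, -0.02, as a dashed line. Each list has genes on both sides of 0, and list medians run from -0.17 (genes known to fall with Myc) to 0.14 (polyamine metabolism, -0.08 without non-runner A).

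E-boxes were also counted in these lists, beside the 9.63% of all tested genes. The motif stood in the windows of 27.3% of 11 Myc network genes, 27.3% of 22 genes known to rise with Myc and 26.1% of 23 translation factor genes. It stood in 2 of 10 nucleolar genes, 1 of 5 polyamine genes, 18.2% of 11 genes of dividing cells, 12.5% of 16 immediate early genes and 0 of 8 genes known to fall with Myc. Over all tested genes with a window, the median log2 difference was 0.01 for the 251 with the motif and -0.02 for the others.

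The genes whose levels followed Myc best across the arrays were sought with Pearson's r on log2 values, between the brightest probe set of each gene and that of Myc. They were Gng5, a G protein subunit (0.992), Rasl11b, of the Ras family (0.986), Spop, a ubiquitin ligase adaptor (0.983), and Calr, the chaperone calreticulin (0.980). In all, 22 of 3172 genes reached 0.95. The r includes the difference between the groups that chose Myc, so lower values in runners follow from the choice. Rasl11b measured 157.4, 189.9 and 145.8 in non-runners and 96.4, 76.3 and 99.5 in runners (-0.84 ± 0.18), and Spop differed by -1.10 ± 0.29. Gng5 differed by -0.13 ± 0.14 and Calr by -0.42 ± 0.15.

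For the brightest probe set of Gnl3 the closest were Cibar1 (0.996), Elovl5 (0.996), Pitpnb (0.995) and Eef1g (0.995), and 53 genes reached 0.95. Eef1g, a subunit of the elongation factor complex, measured 537.9, 789.1 and 546.8 in non-runners and 540.6, 465.0 and 493.2 in runners. All 4 were highest on non-runner B, like that Gnl3 probe set, with differences of -0.27 to -0.18.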

How the data were processed

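The deposited table holds linear intensities, 1 per probe set and array, with array means, leaving out the outer 2% of values at each end, of 100.14 to 100.15. How the authors computed them was not stated in any source used. The platform annotation gave 7006 probe sets 1 symbol, 308 several and 1426 no symbol, and 59 were controls.

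The scale was log2(intensity + 2.4), where 2.4 is the 10th percentile of the values above 0. Array medians ran from 28.5 to 32.2, over the limit of 1.1-fold, so values were quantile normalized. Controls and the dimmest 40% were left out, leaving 5244 probe sets for limma 3.58.1 (lmFit and eBayes, two-sided, Benjamini-Hochberg, threshold 0.05) in R 4.3.3. Fold changes on this scale understate those of dim genes. If no array of a group reached the control level, the fitted difference and its error describe signal near background, and a fold, where printed, is a bound against that level.

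The members and lists were chosen with earlier results of these data known. Genes named were all members, up to 3 of each list with the smallest p, a fixed set, and the 4 genes most like Myc and Gnl3. The fit was tested on simulated data. Alternatives were other pseudocounts, normalizations, filters and variance models, array weights, a ratio covariate, a block on the chip letter and leaving out each array. Chip letters did not pair the arrays (correlations of same-letter deviations -0.0857 to -0.0413). Figures were drawn with matplotlib 3.10.9.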

Additional observations from a re-analysis of the deposited data

How the results depend on the processing

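Both Myc probe sets and rc_AA892598_at of Gnl3 stayed lower in runners, with groups apart, without quantile normalization and with centring on array medians, and stayed lower with the ratio covariate. The other alternatives could not turn them: filters, variance models and the replicate block do not move a difference, and array weights or leaving out 1 array cannot turn groups that lie apart. With the dimmest 60% left out, Y00396mRNA_at of Myc was no longer tested. With the replicate block 0 probe sets were called higher and 0 lower by limma (359 at an unadjusted p under 0.05, against 424 without it). Every alternative with all 6 arrays called 0 in each direction (298 to 617 at an unadjusted p under 0.05). Leaving out 1 array called 0 to 4 higher and 0 to 1 lower, with 4 higher without non-runner C, and 1 higher and 1 lower without non-runner A, and 0 genes of the 8 lists under any alternative. Probe sets with groups apart numbered 786, 1181 with no filter on dim probe sets, which tests more, and 1176 to 1538 with 1 array left out, where fewer arrays make separation easier. The smallest Myc difference, -0.78, came with a pseudocount of 16 in the first probe set. Under some alternative the sign turned for Max (D14448_s_at, down to -0.14), Gnl3 (rc_AA800679_at, -0.01), M94287_at of Nolc1 (-0.07) and J04792_at of Odc1 (-0.22); the cause was not tested. List medians ranged from -0.05 to 0.18 (Myc network), -0.09 to -0.01 (rise with Myc), -0.26 to -0.06 (fall with Myc), -0.01 to 0.13 (nucleolus), -0.08 to 0.23 (polyamine), -0.05 to 0.06 (translation), -0.09 to 0.10 (dividing cells) and -0.11 to 0.09 (immediate early). Signal near the control level of 40.8 limits Max, Myc and rc_AA892598_at of Gnl3 in runners, and the dim probe sets of Ncl and Nolc1.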
